A study of Mus musculus with 18 samples.

Results

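The basement membrane core is described here through 10 genes: the collagen IV chains Col4a1, Col4a2 and Col4a5, the laminin chains Lama2, Lama4, Lama5, Lamb1 and Lamc1, the linker nidogen 1 (Nid1) and perlecan (Hspg2). They were found by symbol among the 23420 gene rows of the deposited count tables, and all 10 had a row and passed the filter on low counts. The cells were primary cardiac fibroblasts from the hearts of newborn CD1 mice, and all of them carried a retrovirus that expresses Mef2c, Gata4 and Tbx5 from a single transcript, which drives fibroblasts towards a cardiomyocyte-like state. In the second of 2 sample sets, short hairpin RNAs (shRNAs) against Mtfr1l (shMtfr1l), against Opa1 (shOpa1) or against both (the double knockdown) were set against a non-targeting hairpin (shNT), with 3 libraries in each of 4 groups, replicates 1, 2 and 3 being titled day 7, day 8 and day 9. The titles give shOpa1 for all 6 libraries with Opa1 knockdown, but the genotype field writes shOpa2 and shOpa3 for replicates 2 and 3, so the labels do not settle whether the hairpin was the same. Opa1 was low in each of them, at 7.43, 6.85 and 12.6 CPM in shOpa1 and 20.7, 15.99 and 18.2 CPM in the double knockdown, and the groups follow the titles. Mtfr1l encodes a protein of the mitochondrial outer membrane, and Opa1 encodes the GTPase that fuses the inner membrane. The first set adds 1 shMtfr1l sample, titled as an 85% knockdown, and 1 shNT sample, both of reprogrammed cells on day 7. No sorting of converted cells is named in the labels, so each value is over all cells of a culture. Biological replication is named in the labels, but not whether each library had its own animals or cell isolation, so the p-values cover the spread among these libraries and may be narrower than that among animals.

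A basement membrane is a thin sheet of matrix that lies against muscle, endothelial and epithelial cells. Laminins, each a trimer of an alpha, a beta and a gamma chain, bind integrins and dystroglycan at the cell surface and polymerise there. Collagen IV trimers form a further network that is crosslinked covalently, and nidogen and perlecan tie the networks together. In the heart every cardiomyocyte is wrapped in such a sheet, and cardiac fibroblasts, endothelial cells and cardiomyocytes all contribute chains to it.

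The libraries of the second set held 16205862 to 25317069 counts, and those of the first 62923192 in the shMtfr1l sample and 67068683 in the shNT sample. A floor of 3 counts lay at 0.118 to 0.185 CPM (counts relative to library size, scaled with TMM factors) in the second set, far under the level of every gene described, and it covers counting error only. Mtfr1l stood at 16.4 ± 2.88 CPM in shMtfr1l, 69.6 ± 3.34 in shOpa1, 27.2 ± 4.15 in the double knockdown and 71.9 ± 4.17 in shNT (SD, n = 3 each). Opa1 stood at 72.1 ± 1.35, 8.96 ± 3.16, 18.3 ± 2.34 and 63.1 ± 8.33 CPM in the same 4 groups. The targets therefore followed the titles, and each single knockdown went deeper than the double one. Fibroblast markers (11 genes) summed to 55550 to 59820 CPM in shMtfr1l, 58090 to 60340 in shOpa1, 56510 to 59510 in the double knockdown and 54350 to 59910 in shNT. Transcripts of the labelled cell type were thus present in all groups. Fn1, Col1a1 and Col1a2 carried most of these sums, so a similar sum does not mean that each marker was unchanged.

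Per length of transcript, Col4a1 and Col4a2 led the core and the laminin alpha chains were lowest. RPKM, the CPM per kilobase of counted gene length, averaged 1179 for Col4a1 and 942 for Col4a2 over the 12 libraries, and the lowest Col4a1 library (1050) lay just under the highest Col4a2 library (1052). Perlecan followed at 262 RPKM and overlapped with no other member. Lamb1 (151), Col4a5 (147), Nid1 (134) and Lamc1 (128) came next, and their ranges over libraries overlapped. Lama4 (50.96) and Lama2 (43.4) also overlapped, and Lama5 (17.4 RPKM, with a highest library of 26.8) lay under every Lama2 library. Within this middle group the order differed by hairpin. In shOpa1, Nid1 averaged 151 RPKM, Lamb1 112 and Lamc1 84.0. In shNT, Lamb1 averaged 173 RPKM, Lamc1 162 and Nid1 143.

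Col4a1 and Col4a2 are transcribed head to head, and their starts in the deposited annotation leave 2 bases between them. These bases are shown because both genes of this head-to-head pair are among the 10. Whether any of the other 8 genes has such a partner outside the 10 was not examined. In the 27 bases at chr8:11312814-11312840 (mm10, plus strand, from the RefSeq table for GRCm38.p6), the capitals mark the 2 bases between the Col4a1 start, on the left and read leftwards, and the Col4a2 start, on the right.
Col4a1 and Col4a2 starts: gcggcgtctccaaGGggaggaccctgc
RefSeq places the Col4a2 start at 11312805, inside the Col4a1 transcript, so the distance depends on the annotation.

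Promoter sequence is shown for 3 laminin genes that moved together under Opa1 knockdown and for Nid1, which did not move with them. RefSeq windows were available for 8 of the 10 genes (not for Lama4 and Lamc1). Each run below ends at the base before the annotated start, or before the first annotated exon base where that lies further upstream. Capitals mark matches on either strand to the GC box (GGGCGG) or the CCAAT box (CCAAT), motifs common to many promoters.
Lama2, chr10:27616943-27617092, minus strand: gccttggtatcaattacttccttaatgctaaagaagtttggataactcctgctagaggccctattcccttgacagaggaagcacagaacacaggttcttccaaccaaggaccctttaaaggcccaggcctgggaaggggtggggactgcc
Lama5, chr2:180225860-180226009, minus strand: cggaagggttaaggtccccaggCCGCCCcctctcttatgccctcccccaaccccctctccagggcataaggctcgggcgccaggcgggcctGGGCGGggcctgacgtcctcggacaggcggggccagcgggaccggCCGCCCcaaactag
Lamb1, chr12:31265143-31265233, plus strand: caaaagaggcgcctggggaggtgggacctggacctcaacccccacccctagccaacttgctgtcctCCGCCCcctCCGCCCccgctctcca
Nid1, chr13:13437452-13437550, plus strand: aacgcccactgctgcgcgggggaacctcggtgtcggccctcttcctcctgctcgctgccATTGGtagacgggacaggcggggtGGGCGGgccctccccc
The laminin windows differed in composition. Over the 250 bases before the start, Lama2 had 47.2% G and C with 0 CpG dinucleotides, while Lama5 had 72.4% with 19, Lamb1 62% with 14 and Nid1 64.4% with 16. GC boxes numbered 4 in the Lama5 window, 2 in Lamb1 and 1 in Nid1, and Lama2 held neither motif. A CCAAT box occurred once each in Lamb1 and Nid1. Of 32851 mouse windows of the same length, 32.7% held a GC box and 33.8% a CCAAT box. Because the retrovirus carries Gata4 and Tbx5, the windows were also searched for AGATAA, as bound by GATA factors. None of the 8 windows held it, against 9.99% of all windows. The T-box element, searched as AGGTGT, was likewise in none, against 11.8% of all windows. The TATA box, searched as TATAAA, was in none, against 12.4% of all. Such matches describe the letters and are no measure of binding.

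**Figure D1:**
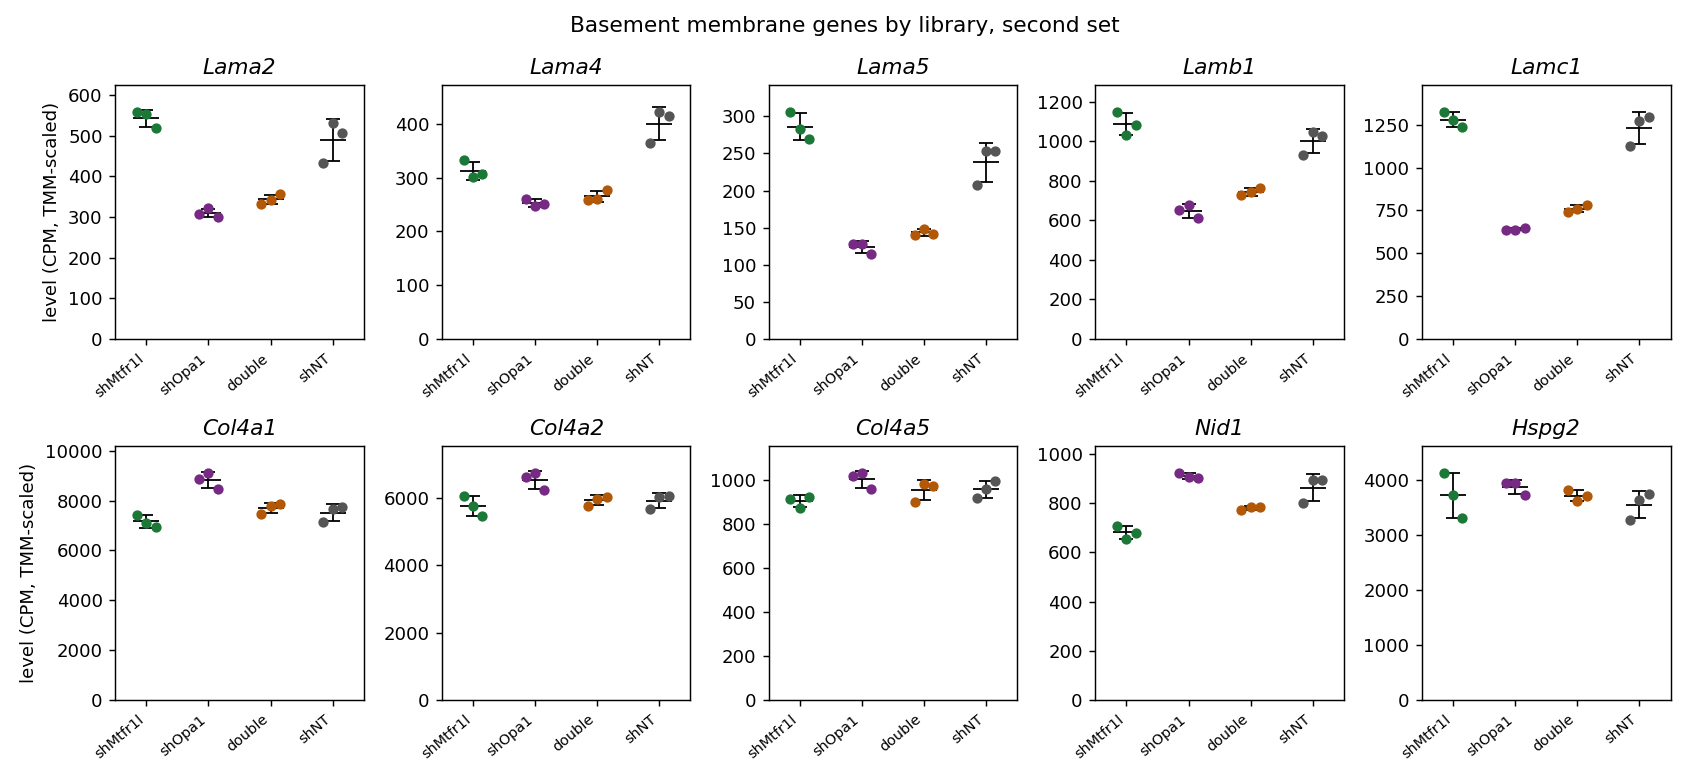
Level of each of the 10 genes in the 12 libraries of the second set (y axis, CPM scaled with TMM factors, starting at 0), by hairpin group (x axis); points are libraries, horizontal marks the mean and bars the SD (n = 3). The 5 laminin genes in the upper row are lower in all shOpa1 and double knockdown libraries than in any shNT library, and among the genes of the lower row this holds for the double knockdown of Nid1 alone. The share of all genes separated in this way was not counted.

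Opa1 knockdown was followed by lower levels of all 5 laminin chains, by 1.545-fold to 1.93-fold, while collagen IV, nidogen 1 and perlecan did not fall. Of the 10 genes, 7 passed an adjusted p under 0.05 in the edgeR quasi-likelihood test of shOpa1 against shNT, 2 of them higher and 5 lower. Of all 14162 genes tested, 29.4% passed, 14.3% higher and 15.1% lower. The median log2 fold change was -0.28 over the 10 genes and 0.01 over all genes tested. Overlap between libraries is described gene by gene below, and the share of all genes without overlap was not counted. Lack of overlap is weaker than a call: Nid1 in shOpa1 did not overlap with shNT and did not pass (adjusted p = 0.229).

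Lamc1 (chromosome 1, 153218922 to 153332786, minus strand) encodes gamma 1, the gamma chain of most laminins, without which basement membranes do not assemble in the mouse embryo. It stood at 639, 638 and 645 CPM in shOpa1, at 739, 759 and 779 CPM in the double knockdown, and at 1124, 1274 and 1297 CPM in shNT. Each shOpa1 and double knockdown library lay under each shNT library. Lamc1 was 1.92-fold lower in shOpa1 than in shNT (log2 fold change -0.94 ± 0.05, SE; adjusted p = 1.6e-18) and 1.62-fold lower in the double knockdown (-0.70 ± 0.05; adjusted p = 3.14e-14). Its shMtfr1l libraries (1324, 1277 and 1238 CPM) overlapped with shNT, with a log2 fold change of 0.06 ± 0.05 (adjusted p = 0.559).

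Lamb1 (chromosome 12, 31265294 to 31329639, plus strand) encodes beta 1, which pairs with gamma 1 in the laminins of the early embryo and of much adult tissue. Its levels were 653, 679 and 611 CPM in shOpa1, 726, 742 and 766 CPM in the double knockdown, and 931, 1046 and 1025 CPM in shNT. The groups again did not overlap with shNT. The fall was 1.545-fold in shOpa1 (-0.63 ± 0.05; adjusted p = 6.6e-13) and 1.34-fold in the double knockdown (-0.43 ± 0.05; adjusted p = 1.73e-08). In shMtfr1l the libraries held 1147, 1032 and 1083 CPM, overlapping with shNT (0.12 ± 0.05; adjusted p = 0.126).

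Lama2 (chromosome 10, 26981285 to 27616942, minus strand) encodes alpha 2, the main laminin alpha chain around skeletal and cardiac muscle fibres, whose loss causes muscular dystrophy. It was at 308, 321 and 301 CPM in shOpa1 and at 332, 341 and 356 CPM in the double knockdown, against 432, 531 and 506 CPM in shNT. All 6 libraries with Opa1 knockdown were lower than the lowest shNT library. The log2 fold change was -0.66 ± 0.06 in shOpa1 (adjusted p = 1.52e-11) and -0.51 ± 0.06 in the double knockdown (adjusted p = 9.99e-09). Under shMtfr1l alone Lama2 held 558, 553 and 519 CPM, and the difference of 0.15 ± 0.06 did not pass (adjusted p = 0.0928), except without shNT replicate 2 (adjusted p = 0.0218).

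Lama5 (chromosome 2, 180176373 to 180225859, minus strand) encodes alpha 5, an alpha chain of epithelial and vascular basement membranes. Its level was 306, 283 and 270 CPM in shMtfr1l, 128, 128 and 114 CPM in shOpa1, 141, 149 and 141 CPM in the double knockdown, and 208, 254 and 253 CPM in shNT. No group overlapped with shNT, and shMtfr1l lay above it while the other groups lay under it. Lama5 was 1.93-fold lower in shOpa1 (-0.95 ± 0.07; adjusted p = 2.71e-13), the largest fall of the 10 genes together with Lamc1. It was 1.66-fold lower in the double knockdown (-0.73 ± 0.07; adjusted p = 2.91e-10) and 1.20-fold higher in shMtfr1l (0.26 ± 0.07; adjusted p = 0.00613). The shMtfr1l rise did not pass without shMtfr1l replicate 1 (adjusted p = 0.0638), without shNT replicate 1 (adjusted p = 0.0742) or without replicate 1 of every group (adjusted p = 0.349, log2 fold change 0.13).

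Lama4 (chromosome 10, 38965515 to 39110188, plus strand) encodes alpha 4, a chain of vessel walls and mesenchymal cells. It was the laminin gene that fell under each hairpin. Its libraries held 332, 301 and 306 CPM in shMtfr1l, 261, 247 and 252 CPM in shOpa1, 259, 261 and 277 CPM in the double knockdown, and 365, 422 and 414 CPM in shNT. No knockdown library reached the lowest shNT library. The falls were 1.28-fold in shMtfr1l (-0.35 ± 0.05; adjusted p = 1.11e-05), 1.58-fold in shOpa1 (-0.66 ± 0.06; adjusted p = 2.84e-12) and 1.51-fold in the double knockdown (-0.59 ± 0.05; adjusted p = 1.06e-10).

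All 5 falls in shOpa1, and all 5 in the double knockdown against shNT, passed in each of 21 alternative settings. Their highest adjusted p was 8.62e-05, for Lamb1 in the double knockdown without replicate 2 of every group. shNT replicate 1 was the lowest shNT library for each of the 10 genes, so this was not particular to the laminins. Without it, the fall of Lamc1 in shOpa1 was larger, at -1.01 on the log2 scale.

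Levels of cardiomyocyte markers differed between the groups too. The 14 markers summed to 5475 to 6001 CPM in shMtfr1l, 2407 to 2711 in shOpa1, 3235 to 3323 in the double knockdown and 3820 to 4057 in shNT. As a background for the marker counts here and in the next paragraph, 10.8% of all genes passed under Mtfr1l knockdown alone against shNT. That share was 29.4% under Opa1 knockdown alone and 23.1% where both genes were lowered. In shMtfr1l, 10 of the 14 rose. In shOpa1, 9 fell. In the double knockdown 5 fell and 2 rose, with a median log2 fold change of -0.09 over the 14. Among them, Tnnt2, which encodes cardiac troponin T, was 1.52-fold lower in shOpa1 (adjusted p = 2.96e-14). In bulk RNA, fewer cells of a type and less RNA per cell cannot be told apart, and the part of the cardiomyocyte-like cells in the laminin levels was not tested. Of the 11 fibroblast markers, 2 rose and 4 fell in shMtfr1l, 3 rose and 5 fell in shOpa1, and 1 rose and 5 fell in the double knockdown. In shOpa1, Vim, an intermediate filament of mesenchymal cells, was 1.55-fold lower (adjusted p = 2.28e-16), Lum, a proteoglycan of collagen fibrils, 1.73-fold lower (adjusted p = 1.41e-11) and Tcf21, a transcription factor of cardiac fibroblasts, 1.505-fold lower (adjusted p = 7.89e-10), while Col3a1, a fibrillar collagen, was 1.36-fold higher (adjusted p = 5.6e-13).

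Markers of other cell types the culture could hold were measured as well. The 12 smooth muscle and pericyte markers summed to 4464 to 4771 CPM in shMtfr1l, 4418 to 4587 in shOpa1, 4197 to 4287 in the double knockdown and 5067 to 5329 in shNT. Epicardial and mesothelial markers (12 genes) summed to 549 to 566, 541 to 593, 527 to 565 and 679 to 706 CPM in the same groups. Of the smooth muscle and pericyte markers 0 rose and 3 fell in shMtfr1l, 3 rose and 5 fell in shOpa1, and 1 rose and 4 fell in the double knockdown, and Acta2 and Tagln carried most of their sum. Of the epicardial and mesothelial markers 0 rose and 7 fell in shMtfr1l, 1 rose and 7 fell in shOpa1, and 0 rose and 8 fell in the double knockdown. Endothelial markers (10 genes) were low, at 97.6 to 118 CPM in shMtfr1l, 118 to 133 in shOpa1, 110 to 114 in the double knockdown and 96.9 to 99.2 in shNT. Flt1 and Tek carried most of their sum. Of the 10, 1 rose and 1 fell in shMtfr1l, 2 rose and 2 fell in shOpa1, and 2 rose and 0 fell in the double knockdown. The macrophage and leukocyte markers (9 measured of 10) ran from 149 to 549 CPM in shMtfr1l and 263 to 647 in shOpa1, with a wide spread within these groups. They ran from 627 to 802 in the double knockdown, above every shMtfr1l and shNT library, and from 293 to 430 in shNT. Of the 9, 0 passed in shMtfr1l, while 1 (C1qa) rose and 0 fell in shOpa1 and in the double knockdown. Their median log2 fold change in the double knockdown was 1.45. Of 8 Schwann cell markers Sox10 and Foxd3 were under 1 CPM in every library. The part of all these cell types in the results on the 10 genes was not tested.

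Collagen IV did not follow the laminins. Col4a1 (chromosome 8, 11198423 to 11312826, minus strand) and Col4a2 (chromosome 8, 11312829 to 11449287, plus strand) encode alpha 1 and alpha 2, which form the collagen IV trimer found in nearly all basement membranes. Col4a1 stood at 8871, 9116 and 8470 CPM in shOpa1 and at 7151, 7680 and 7739 CPM in shNT. Every shOpa1 library was higher than every shNT library, by 1.17-fold on average (log2 fold change 0.23 ± 0.04; adjusted p = 9.15e-06). For Col4a2 the values were 6625, 6760 and 6258 CPM in shOpa1 and 5673, 6055 and 6072 CPM in shNT, again without overlap, and the rise was 1.10-fold (0.14 ± 0.04; adjusted p = 0.00559). The Col4a2 call was lost without shOpa1 replicate 2 (adjusted p = 0.0537) and without replicate 1 or 2 of every group (adjusted p = 0.0852 and 0.112).

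Neither gene passed in the other knockdowns against shNT. Col4a1 held 7443, 7103 and 6946 CPM in shMtfr1l (-0.07 ± 0.04; adjusted p = 0.285, and 0.045 without replicate 1 of every group) and 7459, 7782 and 7852 CPM in the double knockdown (0.03 ± 0.04; adjusted p = 0.594). Col4a2 held 6078, 5768 and 5477 CPM in shMtfr1l (-0.04 ± 0.04; adjusted p = 0.645) and 5780, 5996 and 6055 CPM in the double knockdown, with a log2 fold change of 0.00 ± 0.04 (adjusted p = 0.978). Col4a5 (chromosome X, 141475419 to 141689235, plus strand) encodes alpha 5, a chain of the kidney glomerular membrane that is mutated in Alport syndrome. Its libraries lay between 873 and 922 CPM in shMtfr1l, 959 and 1031 in shOpa1, 900 and 982 in the double knockdown and 916 and 996 in shNT. Each knockdown group overlapped with shNT, while shMtfr1l lay under shOpa1. The log2 fold changes of Col4a5 against shNT were -0.08 ± 0.05, 0.07 ± 0.05 and -0.01 ± 0.05, with adjusted p of 0.298, 0.29 and 0.942.

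Nid1 (chromosome 13, 13437602 to 13512275, plus strand) encodes nidogen 1, which binds the laminin gamma 1 chain and collagen IV. It stood at 709, 657 and 679 CPM in shMtfr1l, 924, 908 and 902 CPM in shOpa1, 773, 787 and 785 CPM in the double knockdown, and 800, 896 and 897 CPM in shNT. The shMtfr1l and double knockdown libraries were lower than all shNT libraries, and the shOpa1 libraries lay just above them. Nid1 was 1.27-fold lower in shMtfr1l (-0.34 ± 0.05; adjusted p = 9.42e-07), and this passed in all 21 alternative settings. The fall in the double knockdown was 1.11-fold (-0.15 ± 0.05; adjusted p = 0.0183) and was lost in 5 of 21 settings: without double knockdown replicate 1 (adjusted p = 0.0705), without shNT replicate 2 or 3 (0.115 and 0.119) and without replicate 2 or 3 of every group (0.19 and 0.174). In shOpa1 the difference was 0.08 ± 0.05 (adjusted p = 0.229).

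Hspg2 (chromosome 4, 137468803 to 137570630, plus strand) encodes perlecan, the large heparan sulfate proteoglycan of basement membranes. Its libraries held 4122, 3727 and 3306 CPM in shMtfr1l, 3942, 3930 and 3728 in shOpa1, 3811, 3608 and 3709 in the double knockdown, and 3262, 3638 and 3734 in shNT. The groups overlapped throughout, and the spread within shMtfr1l was as wide as any difference between groups. The log2 fold changes against shNT were 0.07 ± 0.07, 0.13 ± 0.07 and 0.07 ± 0.07, with adjusted p of 0.665, 0.231 and 0.584. The shOpa1 difference passed without the filter on low counts (adjusted p = 0.0105), without shMtfr1l replicate 1 or 3 (0.0455 and 0.0339) and without replicate 3 of every group (0.013), and the shMtfr1l difference in the last of these alone (0.037).

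**Figure D2:**
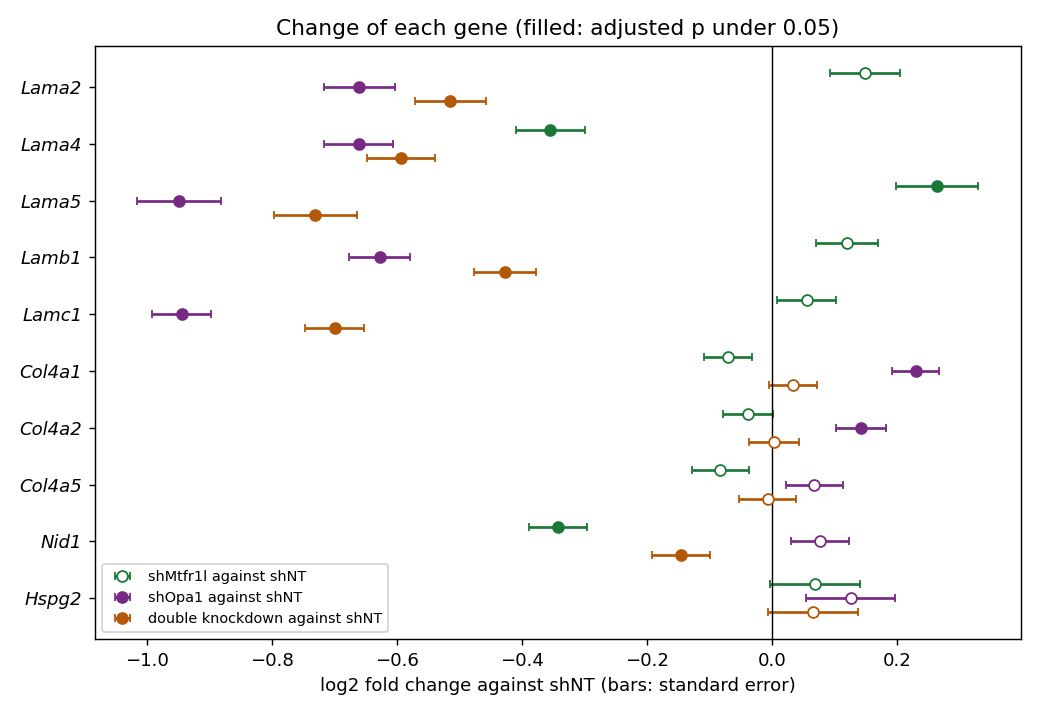
Log2 fold change of each gene against shNT (x axis, bars are the SE of the edgeR fit) for the 3 knockdown groups (colours); filled points had an adjusted p under 0.05. In shOpa1 and in the double knockdown the laminin genes lie between -0.95 and -0.43, and the collagen IV genes, Nid1 and Hspg2 between -0.15 and 0.23. In shMtfr1l the filled points are Lama4 at -0.35, Nid1 at -0.34 and Lama5 at 0.26.

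Mtfr1l knockdown alone moved fewer of the genes. Of the 10, 3 passed in shMtfr1l against shNT: Lama5 was higher, and Lama4 and Nid1 were lower. In this comparison 10.8% of all genes passed, 5.56% higher and 5.19% lower. The median log2 fold change was 0.01 over the 10 genes and 0.00 over all genes. In the double knockdown against shNT 6 of the 10 passed, all lower, against 23.1% of all genes, 11.2% higher and 11.9% lower. The comparisons with shNT share its 3 libraries, so they are not independent of each other.

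Ratios within a library, which need no scaling between libraries, showed how the balance of the core differed. The 5 laminin genes made up 16.3%, 16.2% and 16.7% of the summed RPKM of the 10 genes in shMtfr1l, 8.725%, 8.67% and 8.84% in shOpa1, 10.85%, 10.8% and 10.99% in the double knockdown, and 14.9%, 15.7% and 15.5% in shNT. Each knockdown group was separate from shNT, higher in shMtfr1l and lower in the other groups. Nid1 relative to its laminin partner Lamc1 had a log2 ratio of counts of -0.90, -0.96 and -0.87 in shMtfr1l, 0.53, 0.51 and 0.48 in shOpa1, 0.06, 0.05 and 0.01 in the double knockdown, and -0.49, -0.51 and -0.53 in shNT. No groups overlapped, and the mean differed from shNT by -0.40 for shMtfr1l, by 1.02 for shOpa1 and by 0.55 for the double knockdown. An exact 2-sided permutation test gave p = 0.1 for each, the smallest that 3 against 3 libraries allow.

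The chains that assemble together did not keep a fixed ratio. Lamb1 to Lamc1 stood at a log2 ratio of 0.01 ± 0.09 in shOpa1, -0.03 ± 0.00 in the double knockdown and -0.30 ± 0.04 in shNT (SD, n = 3), without overlap with shNT (exact permutation p = 0.1 each). Lamc1 thus was lower relative to Lamb1 wherever Opa1 was lowered. In shMtfr1l the ratio was -0.24 ± 0.06 and overlapped with shNT (exact permutation p = 0.3). Col4a2 to Col4a1 moved less, at -0.43 ± 0.01 in shOpa1, -0.37 ± 0.00 in the double knockdown and -0.34 ± 0.01 in shNT, again without overlap (exact permutation p = 0.1 each). In shMtfr1l this ratio was -0.31 ± 0.03 and overlapped with shNT (exact permutation p = 0.2).

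The mix of laminin alpha chains differed most in shMtfr1l. Lama4 made up 39.0 ± 0.98% of the summed alpha chain RPKM of Lama2, Lama4 and Lama5 in shMtfr1l, 49.5 ± 1.29% in shOpa1, 47.8 ± 0.51% in the double knockdown and 48.2 ± 0.76% in shNT (SD, n = 3). Lama2 made up 42.1 ± 1.03% in shMtfr1l and 36.6 ± 0.58% in shNT, and Lama5 18.9 ± 0.37% in shMtfr1l and 15.2 ± 0.36% in shNT. None of the 3 shares overlapped between shMtfr1l and shNT (exact permutation p = 0.1 each). In shOpa1, where all alpha chains fell, Lama5 made up 12.8 ± 0.56%, under each shNT library, while the Lama2 and Lama4 shares overlapped with shNT (exact permutation p = 0.2 each).

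**Figure D3:**
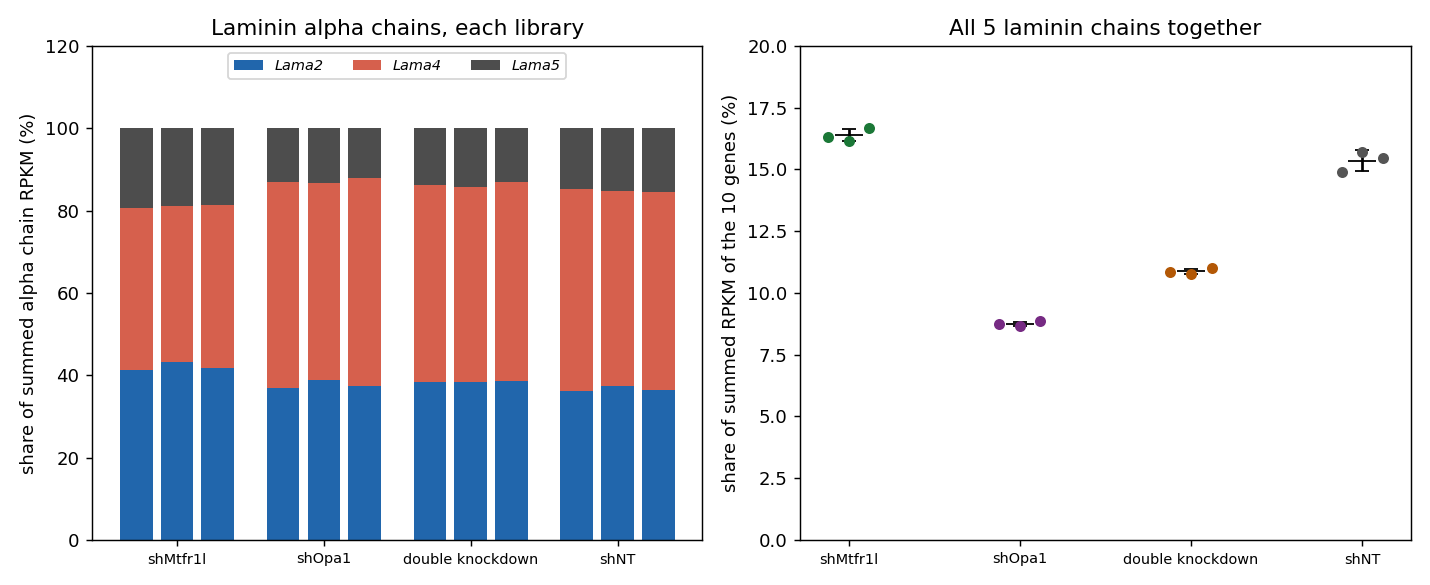
Left, share of Lama2, Lama4 and Lama5 in their summed RPKM (y axis, percent) in each of the 12 libraries, 3 bars per hairpin group (x axis). Right, share of the 5 laminin genes in the summed RPKM of the 10 genes (y axis, percent, from 0), where points are libraries, marks the mean and bars the SD (n = 3): shMtfr1l averages 16.4%, shOpa1 8.75%, the double knockdown 10.9% and shNT 15.4%.

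With Opa1 knockdown added to Mtfr1l knockdown every laminin gene was lower. In the double knockdown against shMtfr1l 7 of the 10 genes passed, 5 lower and 2 higher, against 21.5% of all genes, 9.72% higher and 11.7% lower. The falls were 1.99-fold for Lama5 (-0.99 ± 0.07; adjusted p = 1.52e-13), 1.69-fold for Lamc1 (-0.75 ± 0.05; adjusted p = 2.32e-15) and 1.58-fold for Lama2 (-0.66 ± 0.06; adjusted p = 2.45e-11). Lamb1 fell 1.46-fold (adjusted p = 4.63e-11) and Lama4 1.18-fold (-0.24 ± 0.06; adjusted p = 0.0012). These 5 falls passed in all 21 alternative settings. Nid1 was 1.15-fold higher in the double knockdown than in shMtfr1l (adjusted p = 0.00143), a call lost without replicate 2 of every group (adjusted p = 0.0829). Col4a1 was 1.07-fold higher (0.10 ± 0.04; adjusted p = 0.0476), but with replicate number as a block the adjusted p was 0.0689, and the call held in 10 of 21 settings. It was lost without replicate 2 or 3 of shMtfr1l, of the double knockdown or of shNT and without shOpa1 replicate 1 or 2 (adjusted p = 0.0578 to 0.198), and without replicate 2 or 3 of every group (0.341 and 0.413).

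With Mtfr1l knockdown added to Opa1 knockdown 5 of the 10 genes passed, 2 higher and 3 lower, against 4.77% of all genes, 2.31% higher and 2.46% lower. Lamc1 was 1.185-fold higher in the double knockdown than in shOpa1 (0.24 ± 0.05; adjusted p = 0.000822) and Lamb1 1.15-fold higher (0.20 ± 0.05; adjusted p = 0.0101). Both stayed under their shNT levels, as given above. Lama5 was 1.16-fold higher without overlap between the groups but missed the threshold (0.22 ± 0.07; adjusted p = 0.0545), which it passed in 7 of 21 settings, among them without shNT replicate 1 (adjusted p = 0.0141) and without shMtfr1l replicate 1 or 3 (0.0459 and 0.0466). Lama2 also missed it (0.15 ± 0.06; adjusted p = 0.158). Nid1 was 1.17-fold lower (-0.22 ± 0.05; adjusted p = 0.00199), Col4a1 1.15-fold lower (-0.20 ± 0.04; adjusted p = 0.000972) and Col4a2 1.10-fold lower (-0.14 ± 0.04; adjusted p = 0.0314). With replicate number as a block Col4a2 did not pass (adjusted p = 0.0558), and it did not pass without any 1 of the double knockdown libraries or without shOpa1 replicate 1 or 2 (adjusted p = 0.0664 to 0.176), nor without replicate 1 of every group (0.201). With replicate 2 of every group left out, all 5 missed the threshold, with adjusted p from 0.0638 to 0.401. Lamb1 also did not pass without replicate 3 of the double knockdown (0.0728) or of shOpa1 (0.079), nor without replicate 3 of every group (0.277). Opa1 itself was 2.04-fold higher in the double knockdown than in shOpa1 (adjusted p = 0.00745), and the part of that weaker knockdown in these differences was not tested.

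The interaction, which asks whether the change under shMtfr1l is the same with and without Opa1 knockdown, passed for 1 of the 10 genes, against 3.56% of all genes, 1.57% higher and 1.99% lower. That gene was Lama4. It differed by -0.35 ± 0.05 (log2) between shMtfr1l and shNT, and by 0.07 ± 0.06 between the double knockdown and shOpa1, where its libraries overlapped. The interaction was 0.42 ± 0.08 (log2; adjusted p = 0.000626). It did not pass without replicate 2 of every group (adjusted p = 0.109) or without replicate 3 of every group (adjusted p = 0.0502). For Lamc1 the interaction was 0.19 ± 0.07 (adjusted p = 0.113), and it passed without shNT replicate 1 (adjusted p = 0.00928) and without replicate 1 of every group (0.0189). For Lama5 it was -0.05 ± 0.09 (adjusted p = 0.882). Mtfr1l stood 1.66-fold higher in the double knockdown than in shMtfr1l (adjusted p = 5.27e-06), and the part of that weaker knockdown was not tested.

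The first set gives 1 sample per hairpin, without a test or an error. Each sample is the sum of 3 count columns, which differed from each other by a chi-square of 4.36 to 7.52 per gene, close to the 5.37 to 10.3 between libraries of a group in the second set, and the labels do not say what the columns are. There Nid1 stood at 274 CPM in shMtfr1l and 617 CPM in shNT, 2.25-fold lower, in the direction found in the second set. Lama4 stood at 166 CPM in shMtfr1l and 226 CPM in shNT, 1.37-fold lower and again in the same direction. Lama5 went the other way from the second set, with 134 CPM in shMtfr1l and 220 CPM in shNT, 1.64-fold lower. Among the 10 genes 2 were lower by over 1.5-fold (Nid1 and Lama5), 0 were higher by as much, and 8 lay between. Of all 15359 genes compared, 10.9% were lower and 6.53% higher by over 1.5-fold.

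The collagen IV genes of the first set were also lower. Col4a2 held 5007 CPM in shMtfr1l and 7076 CPM in shNT (1.41-fold lower), and Col4a1 held 7964 CPM in shMtfr1l and 9346 CPM in shNT (1.17-fold lower). Col4a5 stood at 852 CPM in shMtfr1l and 1025 CPM in shNT. Lama2, Lamb1, Lamc1 and Hspg2 differed by 0.09, 0.06, 0.04 and -0.03 on the log2 scale. Against the second set's direction went the Col4a2 to Col4a1 log2 ratio (-0.67 in shMtfr1l, -0.40 in shNT) and the Lama5 alpha chain share (9.86%, 14.6%). With it went the log2 ratios of Nid1 (-2.21, -1.01) and Lamb1 (-0.04, -0.06) to Lamc1. So did the Lama2 share (67.2%, 57.1%), the Lama4 share (22.9%, 28.3%) and the laminin share of the core (16.8%, 13.9%). Mtfr1l was at 8.73 CPM in shMtfr1l and 79.2 CPM in shNT, a deeper knockdown than in the second set. Cardiomyocyte markers summed to 15820 CPM in shMtfr1l and 10750 CPM in shNT, smooth muscle and pericyte markers to 4205 and 5693 CPM, fibroblast markers to 35670 and 41780 CPM, and macrophage and leukocyte markers to 87.15 and 168 CPM in the same samples. Their part in these differences was not tested.

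**Figure D4:**
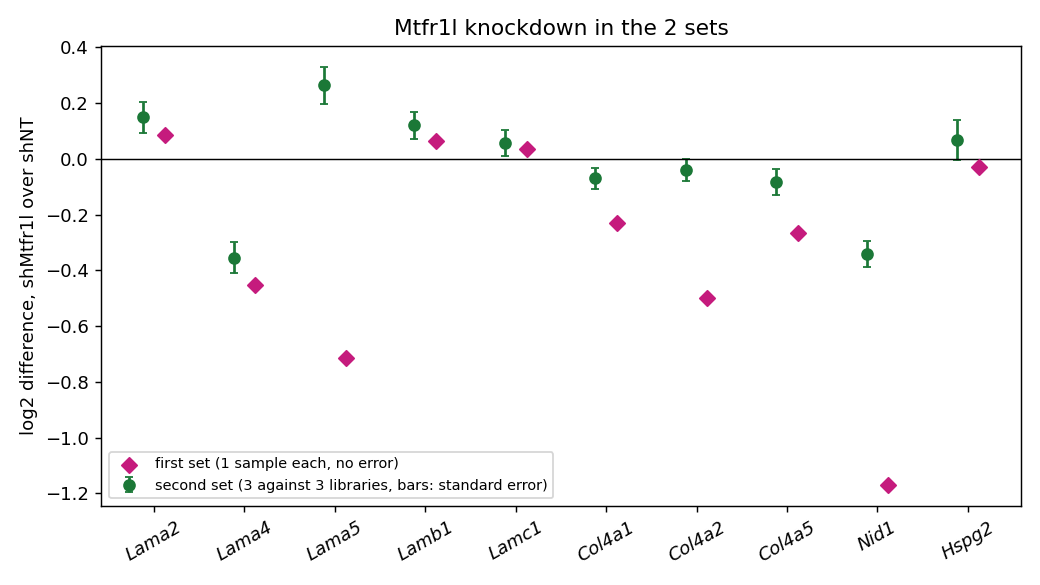
Log2 difference of shMtfr1l over shNT (y axis) for each of the 10 genes (x axis) in the second set (circles, 3 against 3 libraries, bars are the SE) and in the first set (diamonds, 1 sample each, no error). Nid1 and Lama4 are under 0 in both sets, and Lama5 is at 0.26 in the second set and at -0.71 in the first.

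The remaining chains of the same families did not move as a block. For this and the following lists, the share of all genes called was 10.8% for shMtfr1l, 29.4% for shOpa1 and 23.1% for the double knockdown, each against shNT. All 10 other collagen IV, laminin and nidogen genes were tested. In shMtfr1l and in shOpa1 2 rose and 1 fell, and in the double knockdown 1 rose and 2 fell. Their median log2 fold change in shOpa1 was -0.05. Col4a3, a collagen IV chain of kidney and lung, was at 52.9 ± 8.43 CPM in shOpa1 and 86.3 ± 7.75 CPM in shNT (SD, n = 3), a fall of 1.63-fold (adjusted p = 1.44e-05), opposite in direction to Col4a1 and Col4a2. Lamb2, the beta chain that replaces beta 1 at synapses and in the kidney, did not fall with Lamb1 in shOpa1: it averaged 480 ± 21.2 CPM there and 490 ± 18.9 CPM in shNT (adjusted p = 0.696). In shMtfr1l Lamb2 was 1.23-fold lower (399 ± 15.1 CPM; adjusted p = 3.4e-05). Nid2, the other nidogen, was 1.30-fold higher in shMtfr1l, at 2786 ± 163 CPM against 2148 ± 140 CPM in shNT (adjusted p = 0.000191), opposite to Nid1. Col4a4 rose 1.35-fold in shMtfr1l (adjusted p = 8.42e-05).

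Of 24 genes for proteins associated with basement membranes 21 were tested. In shMtfr1l 3 rose and 6 fell, while 3 rose and 8 fell in each of the groups with Opa1 knockdown, with medians of -0.02, -0.09 and -0.15 (log2). Col18a1, which encodes the collagen whose end fragment is endostatin, averaged 86.0 ± 3.64 CPM in shOpa1 and 192 ± 13.4 CPM in shNT, 2.235-fold lower (adjusted p = 8.37e-18). Sparc, a collagen-binding matrix protein that also binds collagen IV, was 1.47-fold lower in shOpa1 (adjusted p = 7.11e-16) and 1.40-fold lower in the double knockdown (adjusted p = 1.01e-13). Fras1, a protein of embryonic epithelial basement membranes, rose 1.84-fold in shMtfr1l (adjusted p = 3.28e-09) and fell 1.73-fold in shOpa1 (adjusted p = 1.07e-08). Fbln2, a fibulin that binds nidogen and laminin, was 1.38-fold lower in shMtfr1l (adjusted p = 2.65e-11).

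Among 23 receptors and their linkers, all tested, 5 rose and 1 fell in shMtfr1l, 2 rose and 6 fell in shOpa1, and 1 rose and 6 fell in the double knockdown. The counts in shOpa1 and in the double knockdown are near the share of all genes called. Sgcb, a sarcoglycan of the dystroglycan complex that holds laminin alpha 2 to muscle fibres, averaged 65.5 ± 2.86 CPM in shOpa1 and 133 ± 9.17 CPM in shNT, 2.03-fold lower (adjusted p = 5.31e-15). Itgb1, the beta 1 subunit of the laminin and collagen integrins, was 1.22-fold lower in shOpa1 (adjusted p = 4.69e-07). Itga6, an integrin alpha subunit for laminin, went the other way in the knockdowns with shMtfr1l: it rose 1.72-fold in shMtfr1l (adjusted p = 1.02e-07) and 1.58-fold in the double knockdown (adjusted p = 9.6e-07). Bcam, a receptor of laminin alpha 5, rose 1.39-fold in shMtfr1l (adjusted p = 2.16e-06) and fell 1.20-fold in shOpa1 (adjusted p = 0.00311). These were the directions of Lama5 in the same groups of the second set. In the double knockdown, where Lama5 fell, Bcam did not pass (-0.08 ± 0.07; adjusted p = 0.417).

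Genes that fold, modify and crosslink the chains were split. Of 28 listed, 22 had a row and 21 were tested: 6 rose and 6 fell in shMtfr1l, 9 rose and 4 fell in shOpa1, and 9 rose and 7 fell in the double knockdown. Plod1, a lysyl hydroxylase of collagens, was 1.36-fold higher in shOpa1 (adjusted p = 3.56e-07). Loxl2, a lysyl oxidase that crosslinks collagen IV, was 1.375-fold lower in shMtfr1l (adjusted p = 1.3e-09), and Loxl4 was 1.65-fold lower there (adjusted p = 3.52e-10). Of 21 proteases and inhibitors 20 were tested: 3 rose and 3 fell in shMtfr1l, 6 rose and 5 fell in shOpa1, and 5 rose and 6 fell in the double knockdown. Adamts5, a protease of proteoglycans, was 1.495-fold higher in shOpa1 (adjusted p = 1.73e-11), and Mmp15, a membrane metalloprotease, was 2.04-fold higher in shMtfr1l (adjusted p = 1.88e-11).

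Likeness of pattern over the 12 libraries was measured as the root mean square difference of centred log2 CPM, ranked over 14161 other genes. It is a description, since the libraries share groups and depth. Lama2 and Lamb1 were the closest laminin pair: Lamb1 was second nearest to Lama2, at 0.064, after Kirrel, and Lama2 was 11th from Lamb1. Lamc1 was 4th nearest to Lama5 (0.111), and Lama5 30th and Lama2 31st nearest to Lamc1. Lama4 stood further off, with no laminin closer than rank 778 (Lamb1, at 0.191). Its nearest genes were Col11a1, Cul7 and Kcne4.

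Nearest to Lamc1 were Pmepa1, Sgcb and Fstl1, and nearest to Lamb1 Cdk19, Vim and Synj2. Col4a2 was 5th nearest to Col4a1 (0.045), behind Cyth3, Col5a1, Timp2 and a further gene, and Col4a1 was 9th nearest to Col4a2. Nid1 lay closest to Tead1, Col6a1 and Ston1, and its binding partner Lamc1 was only at rank 11508, with a difference of 0.539. Among the nearest genes of the others were Gucy1b3, Dchs1 and Pik3ip1 for Lama5, C230081A13Rik, Sptan1 and Trak1 for Col4a2, Ddx17 and Ptp4a2 for Col4a5, and Chaf1b, Ptprf and Eif4g3 for Hspg2.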

How the data were processed

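RNA of reprogrammed cells was sequenced in 14 of the series' samples used here, 12 of the second set and 2 of the first. The authors deposited raw counts per gene made with featureCounts 2.0.6, per the file headers, on a UCSC annotation of mm10 with strand setting 2 and without counting read pairs, so mates were counted singly (65.86% of the counts between 1 and 20 were even numbers in the second set, against 72.51% for the first). The deposited gene lengths, here called other values, gave RPKM. The submitters' processing notes name FastQC and DESeq2. Which aligner was used was not given in the sources at hand. 12 count columns of the first set could not be tied to the labels and are not used, so the planned fibroblast values were not made. The 3 columns of each first-set sample were summed and counted as 1 replicate.

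Counts were scaled with TMM and fitted across 14162 genes kept by filterByExpr with edgeR 4.0.16 in R 4.3.3 (quasi-likelihood test, robust estimation, 1 coefficient per group, 8 residual degrees of freedom, common biological coefficient of variation 12.04%). Adjusted p is Benjamini-Hochberg over all genes tested, and a call means a value under 0.05. SE is the log2 fold change over the square root of F. Ratios were compared with an exact 2-sided permutation test. Single-library log2 values use a prior count of 2. On simulated counts for shOpa1 against shNT over 13970 genes, the fit recovered 30% of 50 genes changed by 1.25-fold. Of 50 each changed by 1.5-fold, 2-fold and 4-fold it recovered 64%, 72% and 86%, and 7.35% of its 136 calls were false. No other genes were changed in the simulation, while 29.4% of all genes were called in the measured comparison. The simulated rates therefore need not hold for the measured one.

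Alternatives were DESeq2 1.42.0 and its size factors, no filter, a replicate block, the groups compared alone, non-robust dispersion (added after seeing the data, as was the laminin share of the core) and each library left out. The titles tie replicate numbers to days, so they were taken to pair libraries; same-numbered libraries deviated together little (correlations from -0.189 to 0.122, 18 pairs). The genes named are the 10 members, both targets, up to 4 per list by smallest adjusted p against shNT, and the 3 nearest by pattern; part of them is printed, and some are not reported here. The members and lists were chosen with earlier results of these data known.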

Additional observations from a re-analysis of the deposited data

Results flagged for a closer look

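For Lama4 the change under shMtfr1l differed with and without Opa1 knockdown by the test of that difference, with an interaction of 0.42 on the log2 scale (adjusted p = 0.000626, edgeR quasi-likelihood test). It was lower in all 3 shMtfr1l libraries than in any shNT library, while the double knockdown and shOpa1 libraries overlapped.

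Lama5 moved in opposite directions under shMtfr1l in the 2 sets. The log2 difference was 0.26 in the second set, where all 3 shMtfr1l libraries were above all shNT libraries, and -0.71 in the first set, with 1 sample for each hairpin. The difference between the sets was not tested.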

How the results depend on the processing

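The 5 laminin falls in shOpa1 and the double knockdown against shNT, and in the double knockdown against shMtfr1l, passed under every alternative run, as did the falls of Lama4 and Nid1 in shMtfr1l and the rise of Col4a1 in shOpa1. Of all settings of the 10 genes' fold changes, 1151 kept direction and side of the threshold, 40 lost the call, 16 gained it and 43 changed sign. The 195 settings of the chain ratios moved each by less than 1 SD, and the direction turned in 1: the Lama4 share of the alpha chains in the double knockdown against shNT was -0.38 percentage points, and 0.04 without shNT replicate 1. Their exact test cannot reach 0.05 with 3 against 3 libraries, so it says nothing of their stability. The replicate block changed no call but Col4a1 in the double knockdown against shMtfr1l (adjusted p = 0.0689) and Col4a2 in the double knockdown against shOpa1 (0.0558). Size factors moved the median gene by at most 0.005. With libraries left out, all genes called ranged from 790 to 1574 in shMtfr1l against shNT, 1964 to 3187 in the double knockdown against shMtfr1l, 199 to 738 against shOpa1 and 161 to 539 in the interaction, the last with 0 to 2 of the 10 genes, and 0 to 6 of the 10 in the double knockdown against shOpa1. The order of levels kept 8 to 10 of its 10 places, 8 without shMtfr1l replicate 1 or 3 or shOpa1 replicate 1. The causes were not tested, apart from fewer libraries.

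Values near 0 that did not pass changed sign when libraries were left out. Against shNT, the double knockdown ranged from -0.0024 to 0.0554 for Col4a1, -0.029 to 0.022 for Col4a2, -0.037 to 0.032 for Col4a5 and -0.011 to 0.104 for Hspg2, and shMtfr1l from -0.109 to 0.014 for Col4a2, -0.068 to 0.186 for Hspg2 and -0.032 to 0.117 for Lamc1. Against shMtfr1l, the double knockdown ranged from -0.0089 to 0.1003 for Col4a2 and -0.082 to 0.078 for Hspg2, which was 0.003 with only the groups compared. The interaction ranged from -0.055 to 0.097 for Col4a5, -0.272 to 0.0032 for Hspg2, -0.107 to 0.119 for Lama2, -0.173 to 0.134 for Lama5 and -0.0005 to 0.194 for Lamb1, and for Lama2 was 0.0049 with DESeq2 size factors and 0.005 with DESeq2. The interaction needs all 4 groups and was not run on the groups compared alone.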
